A study of Mus musculus with 6 samples.

Results

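Dazl, Boll, Ddx4, Ddx25, Ybx2, Ythdc2, Rbmxl2, Cpeb1 and Msi1 encode proteins that bind, unwind, package or store messenger RNA in germ cells. These 9 genes were found on the arrays as the probe sets of the array, called transcript clusters, whose only gene symbol in the platform annotation is one of those names. Each had 1 such cluster, so they make up 9 of 21789 clusters with a single symbol. Testes of knockout pups and of control pups were taken at postnatal day 15, and 3 samples of each genotype were each read on an Affymetrix mouse gene array. The labels name no strain, allele, Cre driver, litter or pooling. Whether each replicate is its own animal is not stated, and the p-values reflect how far these samples scatter, a scatter that may be technical. Values are the authors' normalised log2 expression, and each difference is knockout minus control on that scale, so that -1 would be a 2-fold lower signal.

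Male germ cells make many of their messenger RNAs well before the protein is needed, and RNA-binding proteins decide when such a message is spliced, held in store, lengthened at its poly(A) tail or read by ribosomes. DAZ family proteins bind 3′ untranslated regions and favour translation, DEAD-box helicases remodel RNA in germ granules, and cold-shock proteins coat messages for storage. Some of these proteins are present from spermatogonia onward, and others appear in spermatocytes. At postnatal day 15 the first wave of germ cells has reached the pachytene stage of meiosis, and spermatids are not yet formed.

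The genes fell into those with nearly equal signal in both genotypes and those with less signal in the knockout, by amounts that did not pass the test. Ybx2, Ddx25, Ddx4, Cpeb1 and Boll lay below the control mean by 0.13 to 0.30 (log2), which is a signal of 0.812 to 0.914 times that of control, while Dazl, Ythdc2, Rbmxl2 and Msi1 differed by 0.023 or less in either direction. No difference passed an adjusted p of 0.05 in limma over all clusters, where the adjusted p of the 9 genes ran from 0.347 to 0.987. That call is rare here: 3 clusters of the 21789 passed (0.0138%). At an unadjusted p under 0.05 there were 4 of the 9 genes, all lower in the knockout, against 6.45% of all clusters in that direction. The median difference of the 9 genes was -0.13, beside 0.0033 for all clusters, and 6 of the 9 were below 0, beside 48.6% of all clusters. The 9 genes are among the brighter clusters, those with a mean at or over the median cluster. When only these brighter clusters were tested, 5 of the 9 were lower at an unadjusted p under 0.05, against 10.1% of the clusters kept. Of the clusters kept, 51.7% lay below 0. In 3 of the 9 genes the highest knockout value lay under the lowest control value, where 8.6% of all clusters showed that.

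The sequences at the start sites of these genes are shown first, to set out which short motifs these genes hold near their starts. RefSeq promoter windows of assembly GRCm38.p6 were used for 7 of the 9 genes. Each was 300 bases long (250 before and 50 after a transcription start). There were 9 windows in all because Boll and Ybx2 have 2 starts. The motif counts leave out Ythdc2 and Msi1, which does not show that these genes lack a window. Both were level between genotypes. The motif shares below therefore describe the 7 genes counted, and shares over all 9 genes are not known. The E-box CACGTG, which reads the same on both strands, is bound by proteins of the MYC and MAX family, and in embryonic stem cells MAX and its partners are known to hold many germ cell genes silent. It occurred in the windows of 5 of these 7 genes, compared with 8.09% of the 27025 genes in the table. The stretches of 30 bases that hold it are given 5′ to 3′ on the strand of the gene, with the E-box in capitals.
Ddx4, chr13:112652322-112652351, minus strand, 29 bases before the start: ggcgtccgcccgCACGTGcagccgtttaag
Boll, chr1:55363745-55363774, minus strand, 9 bases before the start: gagcagagtttgCACGTGggaacttgtctt
Ddx25, chr9:35558421-35558450, minus strand, after the start: ccgcgcgggggtggcagCACGTGccagggg
Cpeb1, chr7:81454717-81454746, minus strand, after the start: aaaaatagtgccCACGTGtgtgcgcgtccc
Rbmxl2, chr7:107209212-107209241, plus strand, 221 bases before the start: ggacggggcccaCACGTGaagccagggcca

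Of the genes with an E-box, Ddx4, Boll, Ddx25 and Cpeb1 lay 0.13 or more below the control mean and Rbmxl2 did not, and the windows of Ybx2 and Dazl held none. A core of sites bound by E2F6, GCGGGA on either strand, was in the windows of 6 of the 7 genes (all but Dazl), beside 22.1% of all genes. In Ybx2 it occurs in both windows, and the copy 121 bases before the first start stands in a GC-rich stretch, shown with the core in capitals.
Ybx2, chr11:69935766-69935795, plus strand: ggcggccgggagGCGGGAcctgagcgcgcc

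The cyclic AMP response element TGACGTCA was in 0 of the 7 genes and in 2.03% of all genes. The MYB core AACTG, on either strand, was in 2 of 7 (Boll and Rbmxl2) and in 48.2% of all genes. No copy of one of these motifs overlapped a copy of another in the printed stretches. The member windows were rich in CG dinucleotides, with 13 to 41 per window against a median of 7 in all windows, and motifs that hold CG are more frequent in such sequence. These matches describe letters only.

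In the DAZ family, Dazl did not differ between genotypes beyond the spread of the arrays and Boll had a small difference. Dazl, which promotes translation of germ cell messages from the earliest stages on, had 12.62, 12.60 and 12.65 in knockout arrays, against 12.66, 12.60 and 12.59 in control arrays. The groups overlapped throughout, with a difference of 0.0067 and a 95% interval of -0.091 to 0.10 (limma adjusted p = 0.973). Boll, the relative of Dazl that acts from meiosis onward, had 11.29, 11.25 and 11.35 in knockout arrays, against 11.35, 11.52 and 11.41 in control arrays. The highest knockout value and the lowest control value of Boll were equal. Its means were 11.30 ± 0.050 in knockout and 11.43 ± 0.086 in control arrays (SD, n = 3 each), a difference of -0.13 (SE 0.057, 95% interval -0.26 to 0.0027, limma adjusted p = 0.478).

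Among the helicases, every knockout value of Ddx4 and Ddx25 lay under every control value, and Ythdc2 was level. Ddx4, the mouse VASA protein of germ granules, had 11.83, 11.78 and 11.96 in knockout arrays, against 11.98, 12.14 and 12.06 in control arrays. The gap between the closest arrays, knockout replicate 3 and control replicate 1, was small. The means were 11.86 ± 0.093 in knockout and 12.06 ± 0.080 in control arrays (SD, n = 3 each), a difference of -0.20 (SE 0.064, limma adjusted p = 0.375). Ddx25, the gonadotropin-regulated helicase that carries messages out of the nucleus and into chromatoid bodies, had 9.49, 9.43 and 9.63 in knockout arrays, against 9.68, 9.89 and 9.71 in control arrays. Its difference was -0.24 (SE 0.075, 95% interval -0.42 to -0.066, fold 0.845, limma adjusted p = 0.375), and 2.74% of all clusters had a more negative one. As with Ddx4, knockout replicate 3 was the highest knockout array and control replicate 1 the lowest control array.

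Ythdc2, a helicase with a domain that reads N6-methyladenosine and that is needed for germ cells to leave mitosis, had 10.21, 10.22 and 10.27 in knockout arrays, against 10.23, 10.24 and 10.22 in control arrays. The control values lay inside the range of the knockout values. The difference was 0.0033, with a 95% interval of -0.090 to 0.096 (limma adjusted p = 0.987), and it was -0.0017 after each array was centred on its median. Meioc, the partner with which YTHDC2 acts, was also level, with 11.54, 11.53 and 11.71 in knockout and 11.60, 11.72 and 11.57 in control arrays (difference -0.037, SE 0.066). Meioc was named because it is the known partner of a gene described here.

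**Figure D1:**
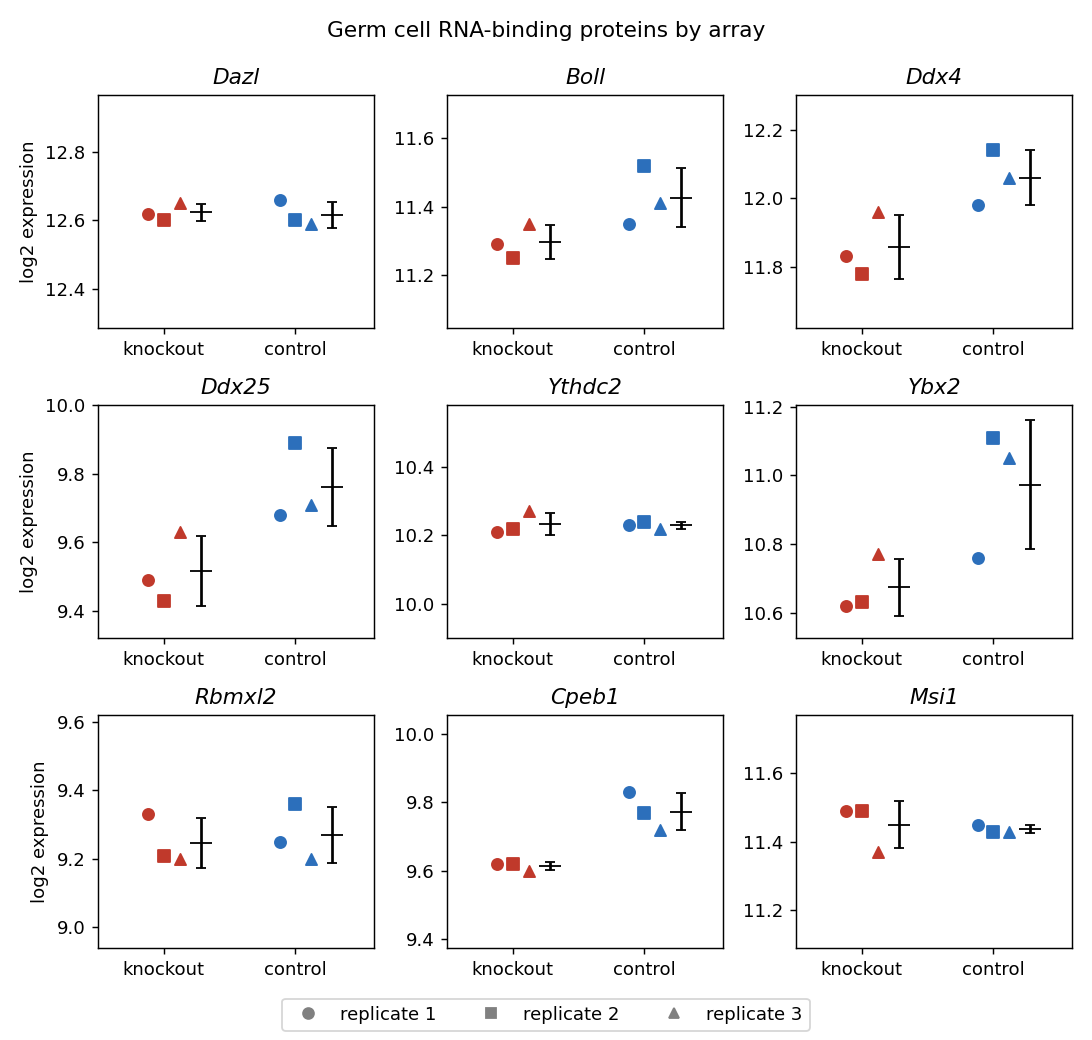
Log2 expression (y axis) of the 9 genes in the 3 knockout arrays (red, left) and the 3 control arrays (blue, right), a panel per gene. Marker shape gives the replicate number, black bars give mean ± SD (n = 3), and all panels span the same range of log2 units. Ddx4, Ddx25 and Cpeb1 have separate groups, Boll and Ybx2 touch or overlap through knockout replicate 3 and control replicate 1, and the others overlap.

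Ybx2 had the largest difference of the 9 genes, and also the widest spread among controls. The gene encodes MSY2, a cold-shock domain protein that packages and stabilises messages in meiotic and later male germ cells. Values were 10.62, 10.63 and 10.77 in knockout arrays, against 10.76, 11.11 and 11.05 in control arrays. Control replicate 1 lay just under knockout replicate 3, and the other control arrays lay above all knockout arrays. The means were 10.67 ± 0.084 in knockout and 10.97 ± 0.19 in control arrays (SD, n = 3 each), a difference of -0.30 (SE 0.095, 95% interval -0.52 to -0.076, limma adjusted p = 0.375). Without control replicate 1 the difference was -0.41 (limma adjusted p = 0.0930), and without control replicate 2 it was -0.23 (limma adjusted p = 0.596).

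Rbmxl2 encodes hnRNP G-T, a nuclear splicing protein that germ cells use while the X chromosome, with its parent gene Rbmx, is silent in meiosis. It had 9.33, 9.21 and 9.20 in knockout arrays, against 9.25, 9.36 and 9.20 in control arrays. These values overlapped, with a difference of -0.023 (SE 0.060, limma adjusted p = 0.927) that changed sign when control replicate 2 was left out (0.022) or arrays were weighted (0.0031). Rbmx itself differed by 0.067 (SE 0.059, limma adjusted p = 0.741).

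Of the regulators that act through 3′ untranslated regions, Cpeb1 was lower in the knockout arrays and Msi1 was not. Cpeb1, which binds the cytoplasmic polyadenylation element and controls poly(A) tail length, had 9.62, 9.62 and 9.60 in knockout arrays, against 9.83, 9.77 and 9.72 in control arrays. The groups were separate and the 3 knockout values lay within 0.02 of each other. The difference was -0.16 (SE 0.044, 95% interval -0.26 to -0.057, fold 0.895), with the smallest p of the 9 genes (limma adjusted p = 0.347, unadjusted p = 0.00791). Unlike Ddx4, Ddx25 and Ybx2, Cpeb1 had its highest control value in control replicate 1 and its lowest knockout value in knockout replicate 3.

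Msi1, a Musashi protein that represses translation of its targets, had 11.49, 11.49 and 11.37 in knockout arrays, against 11.45, 11.43 and 11.43 in control arrays. Knockout arrays lay on both sides of the control arrays. The difference was 0.013 (SE 0.048, 95% interval -0.098 to 0.13, limma adjusted p = 0.951).

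**Figure D2:**
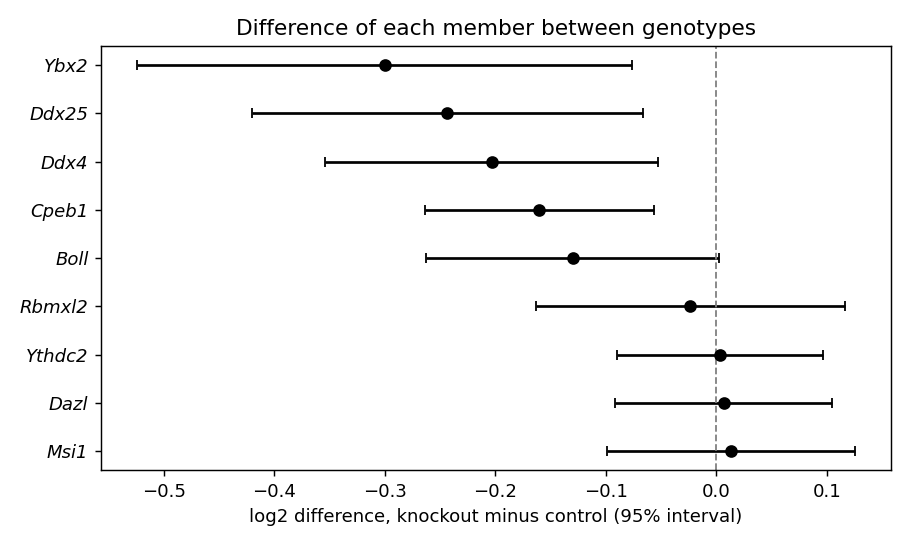
Log2 difference, knockout minus control (x axis), of each of the 9 genes, with the 95% interval from limma (n = 3 arrays per genotype). Intervals of Ybx2, Ddx25, Ddx4 and Cpeb1 lie below 0 before adjustment for the number of clusters, and the interval of Boll ends at 0.0027.

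Boll, Ddx4, Ddx25 and Ybx2, put together after their values were known, had a like pattern over the arrays. For all 4, knockout replicate 3 was the highest knockout array, control replicate 1 the lowest control array and control replicate 2 the highest of all. Relative to the control mean, control replicate 1 stood at -0.080 for Ddx4, -0.080 for Ddx25, -0.077 for Boll and -0.21 for Ybx2. The mean of the markers of pachytene spermatocytes shared these 3 features, though not every marker did. The mean of the other germ cell RNA-binding genes described below shared them as well. Over the 14 pachytene genes the mean, relative to the control mean, was -0.45, -0.41 and -0.24 in knockout replicates 1, 2 and 3, against -0.30, 0.19 and 0.10 in control replicates 1, 2 and 3. Of these 14 genes, 14 lay below the control mean and 0 passed the adjusted threshold, and Ccna1, the meiotic cyclin A1 (-0.27), and Tbpl1, a testis transcription factor (-0.19), had the smallest p. In both Ccna1 and Tbpl1, knockout replicate 3 was the lowest knockout array. At an unadjusted p under 0.05, 7 of the 14 were lower and 0 higher (6.45% and 4.1% of all clusters). Picked out once the values were known, the members farthest below 0 were the sperm protein genes Crisp2 (-0.86), Tcp11 (-0.74) and Adam3 (-0.68), the testis lactate dehydrogenase Ldhc (-0.75) and the PIWI gene Piwil1 (-0.67). The mean level of the list ran from 9.23 to 9.44 in knockout and from 9.38 to 9.87 in control arrays. The part that the share of pachytene cells has in the values of Ybx2, Ddx25, Ddx4 and Boll was not tested, and in whole testes fewer cells of a type and less RNA per cell cannot be told apart.

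Markers of other cell types were compared in the same way. The 10 markers of leptotene and zygotene spermatocytes stood at -0.18, -0.17 and 0.052 in knockout replicates 1, 2 and 3, against -0.032, -0.030 and 0.062 in control replicates (median gene difference -0.032, 8 of 10 below 0). Spo11 (-0.35) and Rec8 (-0.40) had the smallest p of that list, both with separate groups. In all, 3 of its 10 genes were separate on the lower side (8.6% of all clusters). The 7 markers of differentiating spermatogonia had a median of -0.047 (5 of 7 below 0) and the 10 of undifferentiated spermatogonia one of -0.11 (6 of 10 below 0). In the undifferentiated list Gfra1 (0.39) and Sall4 (-0.30) had the smallest p, in opposite directions and both with separate groups. Sertoli cell markers had a median of 0.073, with 9 of 10 above 0, and their mean level ran from 11.48 to 11.55 in knockout and from 11.41 to 11.46 in control arrays. Kitl had the smallest p of the Sertoli list, with a difference of 0.28 and separate groups. Macrophage markers had a median of 0.14 (8 of 8 above 0), and peritubular and endothelial markers medians of -0.020 and -0.017 (5 genes each). Of the 5 measured Leydig cell markers 4 lay above 0, with a median of 0.37, while Hsd17b3, which makes testosterone, had the smallest p of that list and a difference of -0.43 with separate groups. The Leydig list had array means of 9.76 to 9.97 in knockout and 9.50 to 9.86 in control, and the 1 measured erythrocyte marker differed by 0.28. Spermatid markers were level (median 0.0067 over 8 genes), with array means of 6.61 to 6.63 in knockout and 6.57 to 6.62 in control. In none of these lists did a gene pass the adjusted threshold in limma, where 6.45% of all clusters were lower and 4.1% higher at an unadjusted p under 0.05. At that p, 4 of 10 undifferentiated and 3 of 7 differentiating spermatogonia markers were lower and 3 of 8 macrophage markers higher, and 2 undifferentiated markers were higher. The other lists held between 0 and 2 such genes in a direction. Their part in the values of the 9 genes was not tested.

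**Figure D3:**
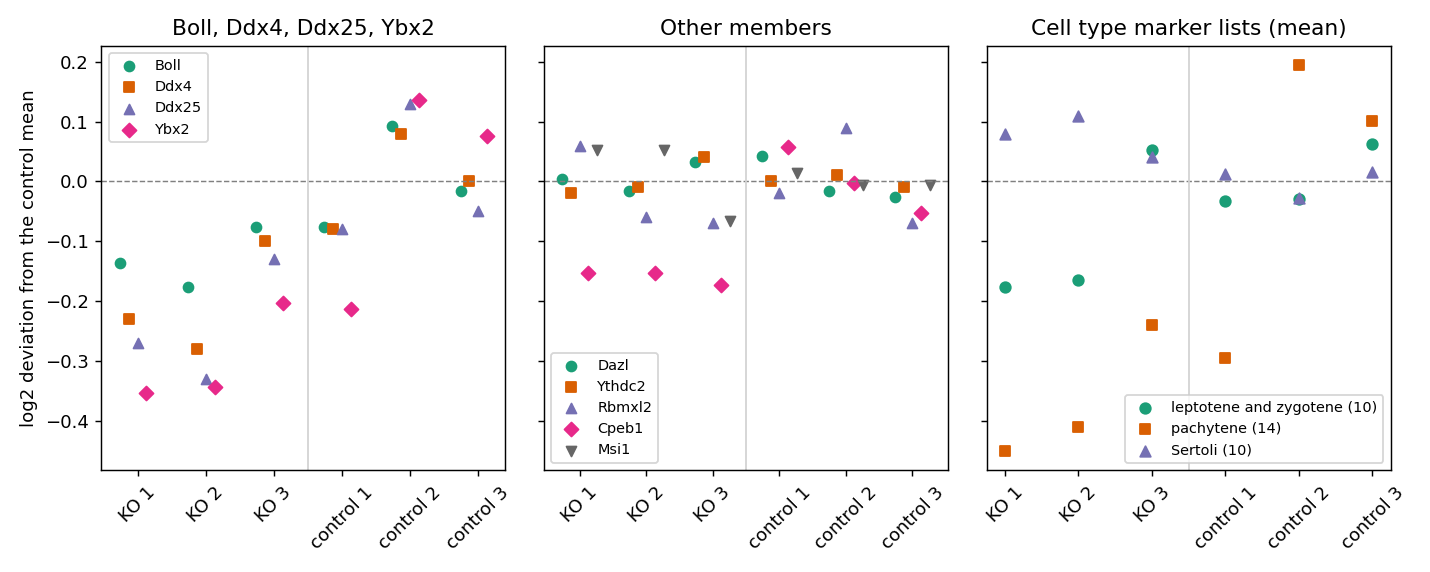
Log2 deviation from the control mean (y axis) in each knockout (KO) and control array (x axis), for Boll, Ddx4, Ddx25 and Ybx2 (left), for the other 5 genes (middle) and for the mean of marker lists of early meiotic spermatocytes, pachytene spermatocytes and Sertoli cells (right, number of genes in brackets). Control replicate 1 lies at -0.21 for Ybx2 and at -0.30 for the pachytene list, while Cpeb1 lies at -0.15 to -0.17 in all 3 knockout arrays.

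The profile averaged over the 9 genes was compared with the 926 other clusters whose SD over the 6 arrays was at least 0.2. Most like this average were 4930444P10Rik (Pearson r 0.993), Pxt1, a testis peroxisomal protein gene (0.991), and Kbtbd6 (0.989). Next came Prss45, a serine protease gene (0.984), and Tcam1, a testicular cell adhesion gene (0.982). The 9 genes did not all share a profile: Ddx4 correlated with Ddx25 at 0.98 and with Msi1 at -0.59. The 6 arrays share the difference between genotypes, which enters each r, and no p is given. Pxt1 had 9.04, 8.95 and 9.21 in knockout arrays, against 9.38, 9.64 and 9.45 in control arrays. That is again knockout replicate 3 highest among knockouts and control replicate 1 lowest among controls. The differences of the 5 clusters ran from -0.42 to -0.31, and none passed the adjusted threshold (limma adjusted p = 0.288 to 0.385).

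Other RNA-binding and translational control genes of germ cells lay more often under the control level than over it. Of 26 listed genes 25 were measured, with a difference under 0 in 18 and over 0 in 7, a median of -0.057 and a range of -0.42 to 0.11. None passed the adjusted threshold, 6 were lower and 0 higher at an unadjusted p under 0.05 (6.45% and 4.1% of all clusters), and 7 were without overlap on the lower side (8.6% of all clusters). Ptbp2, a splicing repressor of neurons and germ cells, had the smallest p, with 11.66, 11.66 and 11.78 in knockout arrays, against 11.88, 11.97 and 11.97 in control arrays (difference -0.24, SE 0.052, limma adjusted p = 0.294). Khdrbs3, a splicing regulator of the STAR family, had 9.03, 9.12 and 9.14 in knockout arrays, against 9.32, 9.69 and 9.53 in control arrays (difference -0.42, SE 0.091, limma adjusted p = 0.294). In both genes the groups were separate and control replicate 1 was the lowest control array.

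Relatives of the 9 genes that many cell types use were mostly level. Of 13 listed genes 12 were measured, with a difference under 0 in 5 and over 0 in 7 and a median of 0.010 beside 0.0033 for all clusters. The smallest p values belonged to Cpeb2, a relative of Cpeb1 (-0.17, SE 0.065, limma adjusted p = 0.422), and Ybx3, a relative of Ybx2 that testes also express (-0.15, SE 0.063, limma adjusted p = 0.455). Cpeb2 had 10.17, 10.24 and 10.33 in knockout arrays, against 10.35, 10.53 and 10.38 in control arrays, and these groups were separate. By contrast Cpeb3 and Cpeb4 differed by 0.020 and 0.060, Ybx1 by 0.010 and Msi2 by 0.010, none past the threshold. Ybx1 and Ddx3x have more than 1 cluster with their symbol, and the cluster with the highest mean was used. For Ybx1 the other cluster differed by 0.053.

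The enzymes that write or erase N6-methyladenosine, the mark read by YTHDC2, had a median of 0.0033 over 5 genes. Fto, an eraser, had 9.70, 9.74 and 9.71 in knockout arrays, against 9.63, 9.53 and 9.61 in control arrays (difference 0.13, SE 0.044, limma adjusted p = 0.399), and the eraser Alkbh5 differed by -0.043. Messages reported in mouse as bound or controlled by one of the 9 proteins had a median of -0.033 over 10 genes, 8 of them below 0, and 0 passed. Among them Prm1, Prm2, Tnp1, Tnp2, Pgk2 and Akap4 had low signal. Their means over all arrays ran from 5.38 to 8.125, near or under the array medians of 8.075 to 8.1. Whether these signals stand over background is not known. Sycp3, a synaptonemal complex gene whose message DAZL binds, had 11.63, 11.59 and 11.72 in knockout arrays, against 11.75, 11.74 and 11.74 in control arrays (difference -0.097, SE 0.047, limma adjusted p = 0.518). Prm1, a protamine gene whose message is stored in spermatids, differed by 0.21 (SE 0.081, limma adjusted p = 0.434). These arrays measure RNA amount, and translation was not measured.

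**Figure D4:**
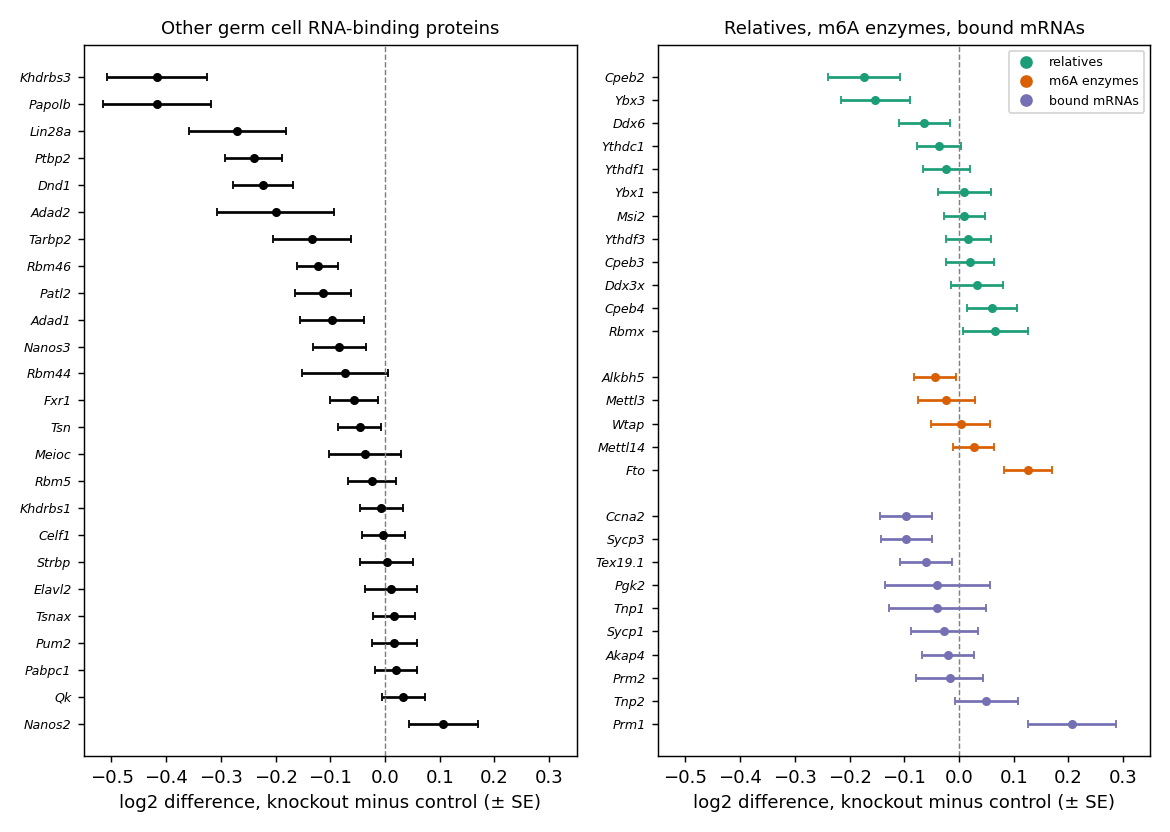
Log2 difference, knockout minus control (x axis), ± SE from limma for 25 other germ cell RNA-binding and translational control genes (left) and for 12 relatives of the 9 genes, 5 enzymes of N6-methyladenosine and 10 bound messages (right). Khdrbs3 and Papolb lie lowest at -0.42, and none of the points passed an adjusted p of 0.05.

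The size of the differences depended on which arrays were compared. Leaving out 1 array at a time moved Ybx2 between -0.41 and -0.23, Ddx25 between -0.30 and -0.18, Ddx4 between -0.26 and -0.16, Boll between -0.17 and -0.083 and Cpeb1 between -0.19 and -0.13, all below 0. The number of genes at an unadjusted p under 0.05 was 2 without control replicate 2 (background 5.08%, lower in the knockout) and 5 without control replicate 1 (6.15%) or knockout replicate 3 (5.51%). Groups without overlap numbered 5 of 9 on the lower side without control replicate 1 or knockout replicate 3, with Boll and Ybx2 added. There 13.1% and 12.9% of all clusters showed that. In the other leave-outs 3 of 9 were without overlap on the lower side, beside 12.1% to 14.3% of all clusters. Without knockout replicate 3, Msi1 was separate on the higher side, as were 12.5% of all clusters. Under these 6 leave-outs and 6 other settings no gene of the 9 passed the adjusted threshold, and the lowest adjusted p was 0.0930, that of Ybx2 without control replicate 1.

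**Figure D5:**
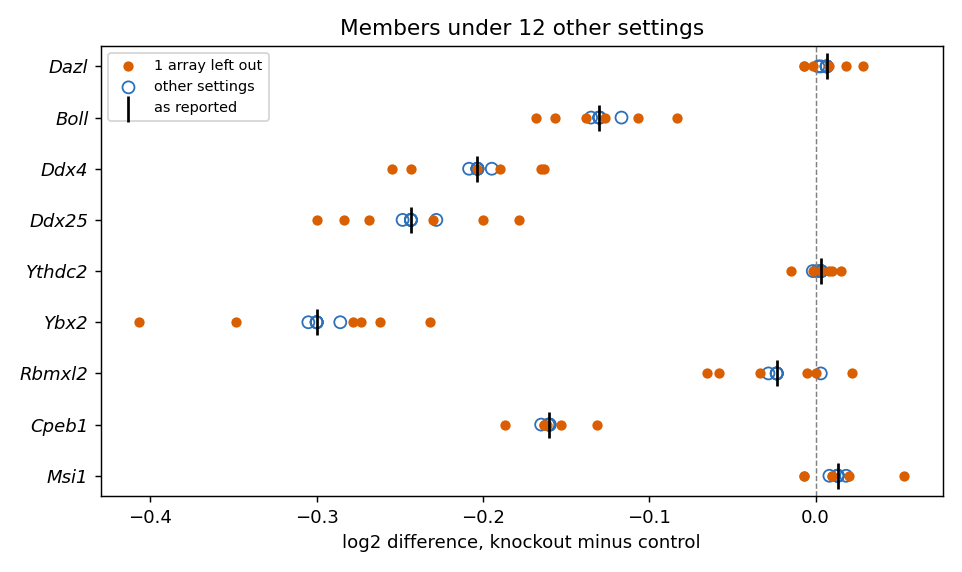
Log2 difference, knockout minus control (x axis), of each of the 9 genes as reported (black bar), with 1 array left out (filled points, 6 each) and under 6 other settings (open circles). Ybx2, Ddx25, Ddx4, Boll and Cpeb1 lie below 0 in all of these, and Dazl, Ythdc2, Rbmxl2 and Msi1 lie on both sides of 0.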

How the data were processed

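The deposited table holds RMA values on the log2 scale, made by the authors in Affymetrix Expression Console, per the submitters' processing notes. RMA corrects background, gives all arrays 1 distribution and summarises probes, so a change shared by all transcripts would not be seen. The sources used here give no version, probe annotation or genome build. Values ran from 2.19 to 14.02 and array medians from 8.075 to 8.1. Lowest correlations were 0.995 within and between genotypes. At most 4.12% of values were identical between 2 arrays. The number of arrays limits the precision. Of 35556 rows, 21789 had 1 gene symbol, 1621 several and 12146 none, and the first were tested. Symbols were updated by gene identifier (21698 matched). The targeted gene is not reported here.

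The genotypes were compared by limma 3.58.1 under R 4.3.3, using lmFit and eBayes without covariates, and p-values were adjusted by Benjamini-Hochberg over the 21789 rows. The procedure was tested on simulated data with planted differences larger than those of the members. That test does not show how often differences of the members' size would be called. Members and gene lists were chosen with earlier results of these data known. All members are named, and for the RNA-binding, relative, N6-methyladenosine, bound-message and pachytene lists the 2 genes with the smallest p, besides relatives and partners of members. Other marker lists are given as counts, with Spo11, Rec8, Gfra1, Sall4, Kitl and Hsd17b3 named besides. Listed genes with no measured row were not analysed here. Alternatives were a replicate block, an intensity trend with robust prior, dim rows left out, all rows tested, median centring, array weights and leaving out each array. Sequences came from RefSeq.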

Additional observations from a re-analysis of the deposited data

How the results depend on the processing

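Of 108 values of single members under 12 alternatives, 97 kept their direction, 1 became 0 (Rbmxl2 without knockout replicate 3) and 10 changed sign without passing the threshold. Those 10 belonged to Ythdc2 (-0.0017 with arrays centred), Rbmxl2 (0.0031 with array weights) and, with 1 array left out, to Dazl (-0.0067 to 0.028), Ythdc2 (-0.015 to 0.015), Rbmxl2 (-0.065 to 0.022) and Msi1 (-0.0067 to 0.053). The number of members past the threshold was 0 in every alternative run. Between 2 and 5 had an unadjusted p under 0.05 in limma, all lower in the knockout. The share of all clusters tested that were lower at that p ran from 4.41% to 10.1%. The median member difference was -0.13, and -0.15 to -0.083 with 1 array left out, where the value nearest 0 was that without control replicate 2. Over all clusters, the 3 calls became 0 with the replicate block, 7 with an intensity trend and robust prior, 0 with all rows tested, and 0 to 52 with 1 array left out, the 52 without control replicate 1. The cause was not tested. Deviations of same-numbered arrays correlated at 0.17, -0.054 and 0.17 for replicates 1, 2 and 3, and those of different-numbered arrays at -0.23 to 0.084. With 3 arrays per genotype these values cannot decide whether the numbers mark pairs. The numbers were not taken as pairs, and the replicate block changed no call of a member. The mean over a gene's rows was not run because each member had 1 row. Overlap with 1 array left out was added after the values were seen. Detection values were not used, so signal over background is not known.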
